A study of Mus musculus with 12 samples.

Results

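Phase II conjugation enzymes attach a large, water-soluble group to drugs, hormones, bilirubin and reactive metabolites, so that these can leave the cell. UDP-glucuronosyltransferases (UGT, genes Ugt1 to Ugt3) sit in the endoplasmic reticulum and transfer a sugar, mostly glucuronic acid. Cytosolic sulfotransferases (SULT) transfer sulfate, and glutathione transferases (GST, with the membrane-bound Mgst genes) add the tripeptide glutathione to electrophiles. The adult liver is the main site of all of these reactions. The members were the gene symbols that begin with Ugt1, Ugt2, Ugt3, Sult1 to Sult7, a cytosolic Gst class or Mgst, followed for the Gst and Mgst names by a number. The rule found 61 of 30743 gene symbols, among them 19 UGT, 18 SULT and 24 GST genes, 3 of the last being Mgst genes.

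The RNA came from whole livers of male C57BL/6J fetuses at 15 ± 0.5 days post coitum (dpc), 6 from dams on a control diet with 13.5 kcal% fat and 6 from dams on a high-fat diet (HFD) with 60 kcal% fat, both for 12 to 14 weeks. No label says which fetuses shared a litter. Every value below is the authors' average log2 CPM of a gene (its read count scaled to a common library size) over all 12 livers, control and HFD together. These averages carry no SD, and a control and an HFD level cannot be told apart in them. Accordingly, members were not compared between the diets, and no difference between genes was tested against the spread between livers.

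A CPM of 1 stood for about 134 reads summed over the 12 livers, as worked back from the lowest level in the data under an assumed prior count of 2. The lowest level, a log2 CPM of -2.71, was held by 11091 genes, the value of a gene with no read. Of 5453 genes with about 1 to 20 reads, 97.5% came within 0.1 of a whole number of reads. The defining genes of hepatocytes were high: Alb, the serum albumin gene, stood at 27034 CPM per kb of exon, and Afp, its fetal relative, at 16189 CPM per kb. Of 5 erythroid genes found, 4 lay above 1 CPM, with Slc4a1, the red cell anion exchanger, at 2461 CPM per kb, while Alas2, which starts heme synthesis in red cells, was listed at 0.704 CPM. In such bulk tissue, fewer hepatocytes and less RNA per hepatocyte cannot be told apart.

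A low value cannot be read as a silent gene in these data. Among 27 genes that every cell uses, chosen after their values were seen, log2 CPM ranged from -2.60 to 12.54 with a median of 5.86, and 5 did not exceed 1 CPM. Ppia, the abundant prolyl isomerase cyclophilin A, was listed at about 2 reads, and Ldha, the lactate dehydrogenase subunit, at about 99.9, whereas Actb, cytoplasmic actin, had 2581 CPM. Hnf4a and Serpina1a, both hepatocyte markers, were listed at 0 and at about 5 reads. Over protein-coding genes the upper quartile of log2 CPM was 4.66 for 12173 genes with 1 curated RefSeq transcript and 1.82 for 7636 genes with more than 1. Its part in any single low value was not tested: Ppia itself has 1 such transcript, and above 1 CPM were 21 of 47 members with 1 and 8 of 14 members with more. For this reason a low member is only said below to be listed at its level.

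**Figure D1:**
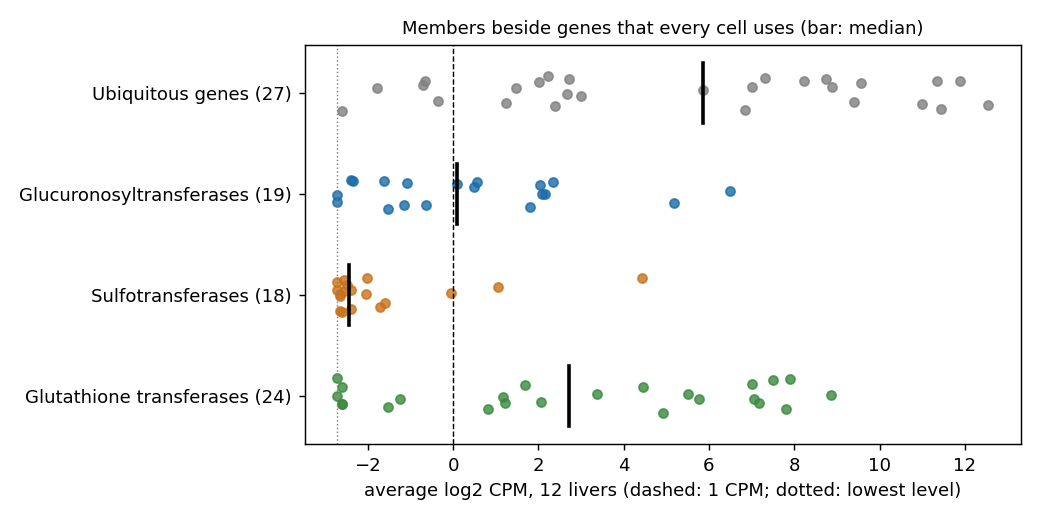
Average log2 CPM over the 12 livers for 27 genes that every cell uses and for the members of each enzyme class, with 1 point per gene and a bar at the median. The points of the ubiquitous genes run from -2.60 to 12.54, so that 5 of them lie at or under 1 CPM among the low members.

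Of the 61 members, 29 (47.5%) lay above 1 CPM, as did 33.1% of all genes in the data. All members are protein coding, and of the 20279 genes matched to a protein-coding gene 45% lay above 1 CPM, so the share of the members as a whole is near that background. Their median log2 CPM of -0.63 was likewise near the -0.67 of the protein-coding genes. The classes differed widely. Above 1 CPM were 17 of 24 GST genes (70.8%), 10 of 19 UGT genes (52.6%) and 2 of 18 SULT genes (11.1%). Summed as CPM per kb of exon, which allows levels of genes of different length to be set side by side, GST genes held 94.3% of the total of all members, UGT genes 4.53% and SULT genes 1.13%. Of the 32 members that did not exceed 1 CPM, 6 had no read, 14 had about 1 to 9 reads and 12 had more.

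**Figure D2:**
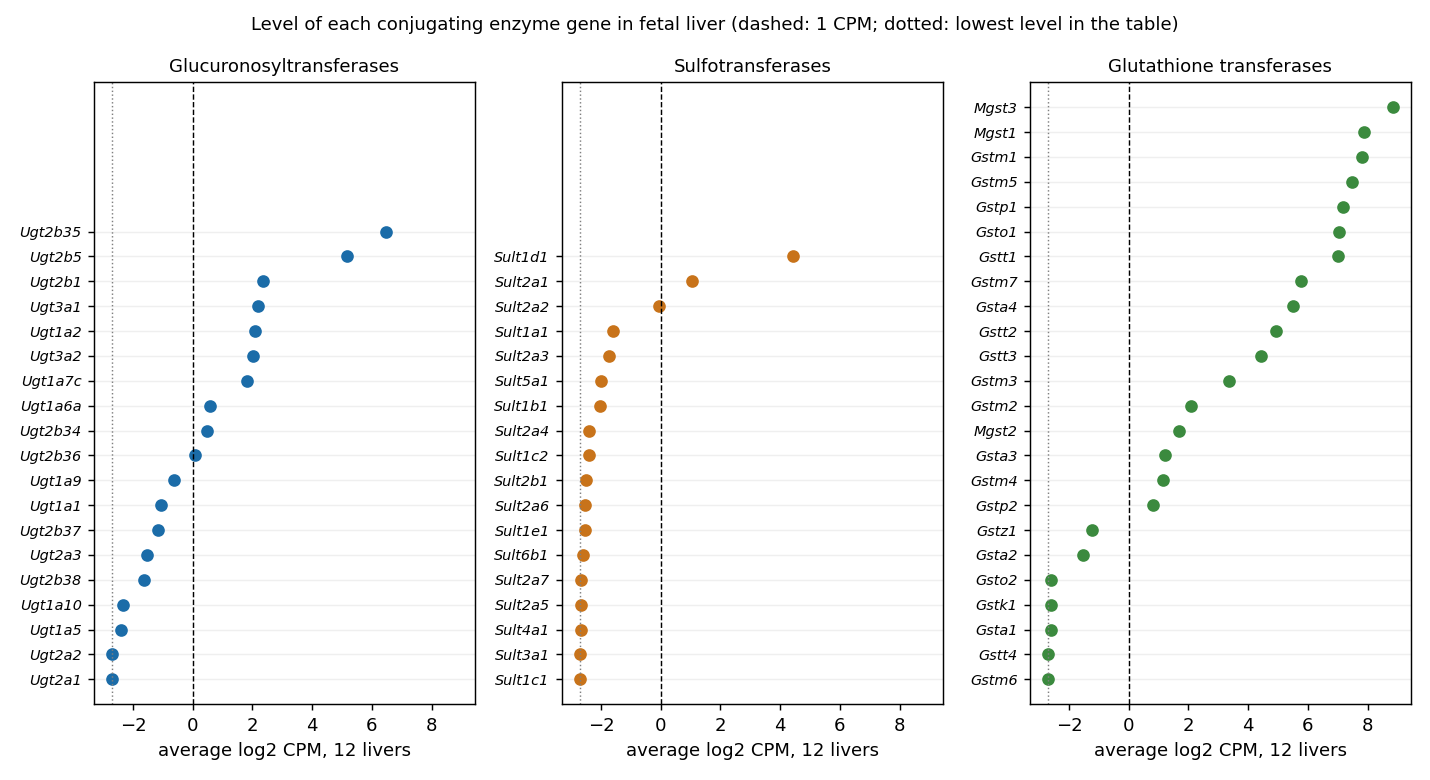
Average log2 CPM over the 12 livers for each of the 61 members, ordered within its class by CPM, which is not corrected for gene length. Glutathione transferases reach 8.86, whereas 16 of 18 sulfotransferases lie left of the dashed line at 1 CPM.

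Among the glutathione transferases, a membrane-bound enzyme came first. Mgst3, a microsomal enzyme that reduces lipid hydroperoxides and can make leukotriene C4, was the highest member of all at 463.9 CPM, or 423 CPM per kb. It alone made up 36.0% of the GST sum, and its level per kb of exon was 2.78 times that of the next member, Gstm1. The second rank depended on the length used. Per kb of the longest transcript Mgst1 came second at 204, ahead of Gstp1 at 175 and Gstm1 at 174. Mgst1, which guards the endoplasmic reticulum and the outer mitochondrial membrane, stood at 238 CPM and 118 CPM per kb, below Gstm1 and Gstm5 per kb of exon. Mgst2, an enzyme related to leukotriene C4 synthase, had 3.22 CPM and 0.870 CPM per kb. The 3 Mgst genes together held 43.5% of the summed level of all members. Their sequences were distinct, and at most 0.475% of the 50-base windows of their transcripts recurred in another gene.

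The mu class, cytosolic enzymes that conjugate epoxides and other electrophiles, was spread over almost the whole range of the family. Gstm1 had 224 CPM and 152 CPM per kb, and Gstm5 180 CPM and 141 CPM per kb, a ratio of only 1.08 per kb between them. Gstm7 followed at 54.2 CPM, then Gstm3 at 10.4, Gstm2 at 4.21 and Gstm4 at 2.24. Gstm6 had no read. All 7 genes lie within 149 kb on chromosome 3, from 107895821 to 108044894 (GRCm38, the build also called mm10), with the pair of highest genes near opposite ends and Gstm6 between them. In chromosome order the levels per kb were thus 141 for Gstm5, 33.8 for Gstm7, 0.0766 (no read) for Gstm6, 7.92 for Gstm3, 2.51 for Gstm2, 152 for Gstm1 and 1.31 for Gstm4. Gstm3 shared 28.8% and Gstm1 18.9% of their transcript windows with other genes, so part of their reads could belong to a relative.

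The pi class held a pair of near-identical genes at unequal levels. Gstp1, the pi enzyme long known from developing and transformed liver, had 144 CPM and 92.8 CPM per kb, and Gstp2, its neighbour on chromosome 19, had 1.77 CPM and 1.59 CPM per kb. Their coding sequences, of 630 bases each, were 98.1% identical and differed at 12 positions, 6 of them in the first 60 bases. Those bases are shown because they hold the most coding differences of the pair, with the differing positions in capitals.
Gstp1: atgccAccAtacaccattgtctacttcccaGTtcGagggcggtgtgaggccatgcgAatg
Gstp2: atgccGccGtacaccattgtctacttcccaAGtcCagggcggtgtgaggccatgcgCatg
The longest stretch of coding bases without a difference was 300, and 54.3% of the Gstp2 transcript windows recurred in another gene. The level of Gstp2, about 255 reads, is therefore uncertain.

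The theta, omega and alpha classes each had 1 leading gene. Gstt1, which acts on small halogenated compounds, stood at 130 CPM and 84.8 CPM per kb. Its neighbours Gstt2 and Gstt3 had 30.4 and 21.8 CPM, or 7.32 and 5.68 CPM per kb, and Gstt4 had no read, although all 4 lie within 63.3 kb on chromosome 10. Gsto1, an omega enzyme that reduces dehydroascorbate and methylated arsenic, had 132 CPM and 65.4 CPM per kb, while its neighbour Gsto2 was listed at about 2 reads. Gsta4, which removes the lipid peroxidation product 4-hydroxynonenal, had 45.8 CPM and 36.2 CPM per kb. Gsta3, a constitutive alpha enzyme of adult mouse liver, had 2.34 CPM and 0.538 CPM per kb. The oxidant-inducible Gsta1 and Gsta2 were listed at about 2 and 31.0 reads. Their coding sequences were 97.6% identical, and 90.5% of the Gsta1 windows recurred in another gene, so the pair cannot be separated with confidence.

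Both remaining glutathione transferases were listed low. Gstk1, a kappa enzyme of mitochondria and peroxisomes, had about 2 reads although none of its windows recurred elsewhere. Gstz1, the zeta enzyme of tyrosine breakdown, had about 43.1 reads. As with Ppia, such values are not read here as low expression. Among the 24 genes, 7 led by level per kb (Mgst3, Gstm1, Gstm5, Mgst1, Gstp1, Gstt1 and Gsto1), and these held 91.6% of the class sum.

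Glucuronosyltransferases were led by the Ugt2b genes, whose enzymes act on steroids, bile acids and drugs. Ugt2b35 had 89.6 CPM and 26.7 CPM per kb, and Ugt2b5 36.2 CPM and 19.5 CPM per kb. Together they held 81.8% of the summed UGT level. Their order was kept per kb of coding sequence, where Ugt2b35 was 2.48 times Ugt2b5 rather than 1.37 times per kb of exon. Ugt2b1 was lower, at 5.10 CPM and 1.98 CPM per kb, and Ugt2b34 and Ugt2b36 lay just above the threshold at 1.40 and 1.06 CPM. Ugt2b37 and Ugt2b38 were listed at about 46.9 and 27 reads.

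Ugt2b38 and Ugt2b5 gave a second case of close relatives far apart in level. Their coding sequences of 1590 bases were 97.0% identical, with 47 differing positions. The 60 bases with the most differences, coding bases 1467 to 1526, are shown with those differences in capitals.
Ugt2b5: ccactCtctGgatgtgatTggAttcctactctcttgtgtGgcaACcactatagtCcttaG
Ugt2b38: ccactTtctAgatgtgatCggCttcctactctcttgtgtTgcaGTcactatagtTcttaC
Elsewhere the differences were sparser, with 1 stretch of 443 identical bases. Of the transcript windows, 41.7% in Ugt2b5 and 37.4% in Ugt2b38 recurred in another gene. Reads from such windows have no single source, and how they were counted is not given in the sources used here.

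The Ugt1a locus makes several enzymes by joining 1 of many first exons to the same later exons. Ugt1a1, which conjugates bilirubin, was listed at 0.477 CPM or about 51.1 reads. Ugt1a2 had 4.25 CPM, Ugt1a7c 3.52 CPM and Ugt1a6a, the enzyme of small planar phenols, 1.48 CPM. Ugt1a9 was listed at 0.647 CPM, and Ugt1a10 and Ugt1a5 at about 7 and 6 reads. Between 52.1% and 80.2% of the windows of each Ugt1a transcript recurred in another gene, so the 7 levels are uncertain as single values. Summed, they came to 3.78 CPM per kb, or 0.304% of the summed level of all members. This sum is uncertain too, because the shared exons count in the length of each gene. How reads from those exons were counted is not given.

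The Ugt3a enzymes use other sugars than glucuronic acid. Ugt3a1 had 4.49 CPM and Ugt3a2 4.08 CPM, which per kb was 1.68 and 1.32. Ugt2a1 and Ugt2a2, known from the olfactory epithelium, had no read, and Ugt2a3 was listed at about 30.8 reads. Ugt2a1 and Ugt2a2 overlap each other in part. Of their windows, 97.0% and 93.6% recurred in another gene, which was not always the other member of the pair.

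As listed, most of the summed sulfotransferase level came from 1 gene. Sult1d1, which sulfates dopamine and other catecholamines in rodents, had 21.5 CPM and 8.74 CPM per kb, and this was 62.2% of the summed SULT level. Sult2a1, which sulfates hydroxysteroids and bile acids, had 2.07 CPM and 2.03 CPM per kb. Sult2a2 lay just under the threshold at 0.972 CPM. Of the others, Sult1a1, the phenol sulfotransferase prominent in adult liver, was listed at about 28.1 reads, Sult1b1, which acts on thyroid hormone, at 14.1 and Sult1e1, the estrogen sulfotransferase, at 3. Sult1c1 and Sult3a1 had no read. In all, 11 of the 18 genes had fewer than 10 reads.

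Sult2a genes are close copies of each other. Sult2a1 and Sult2a5 were 94.9% identical over 855 coding bases, yet Sult2a5 was listed at 1 read against about 303 for Sult2a1. Coding bases 379 to 438 hold the densest differences of the pair, 7 in 60.
Sult2a1: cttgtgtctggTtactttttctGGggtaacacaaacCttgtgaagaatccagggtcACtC
Sult2a5: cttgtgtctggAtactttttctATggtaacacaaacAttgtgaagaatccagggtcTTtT
Their longest identical stretch was 85 bases, and 34.5% of the Sult2a5 windows recurred in another gene.

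Most members had neighbours of their own kind. Grouped where less than 500 kb lay between them, 49 members fell into 10 clusters and 12 stood alone. The largest cluster held 13 members of both the UGT and SULT classes within 702 kb on chromosome 5, from 86889767 to 87591594. Its levels per kb were high at 3 separate points: at Ugt2b35 (26.7), at Ugt2b5 (19.5) and, past the Ugt2a genes, at Sult1d1 (8.74). Both genes that flank Sult1d1, Sult1b1 and Sult1e1, were listed at about 14.1 and 3 reads. Their 0.0870 and 0.138 CPM per kb came mostly from the lowest level, so the order of these values is not read. The 7 Sult2a genes on chromosome 7 spanned 870 kb, with the pair of highest genes, Sult2a2 and Sult2a1, next to each other. Of their windows 62.1% and 33.2% recurred in another gene, so the level of Sult2a2 in particular is uncertain.

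**Figure D3:**
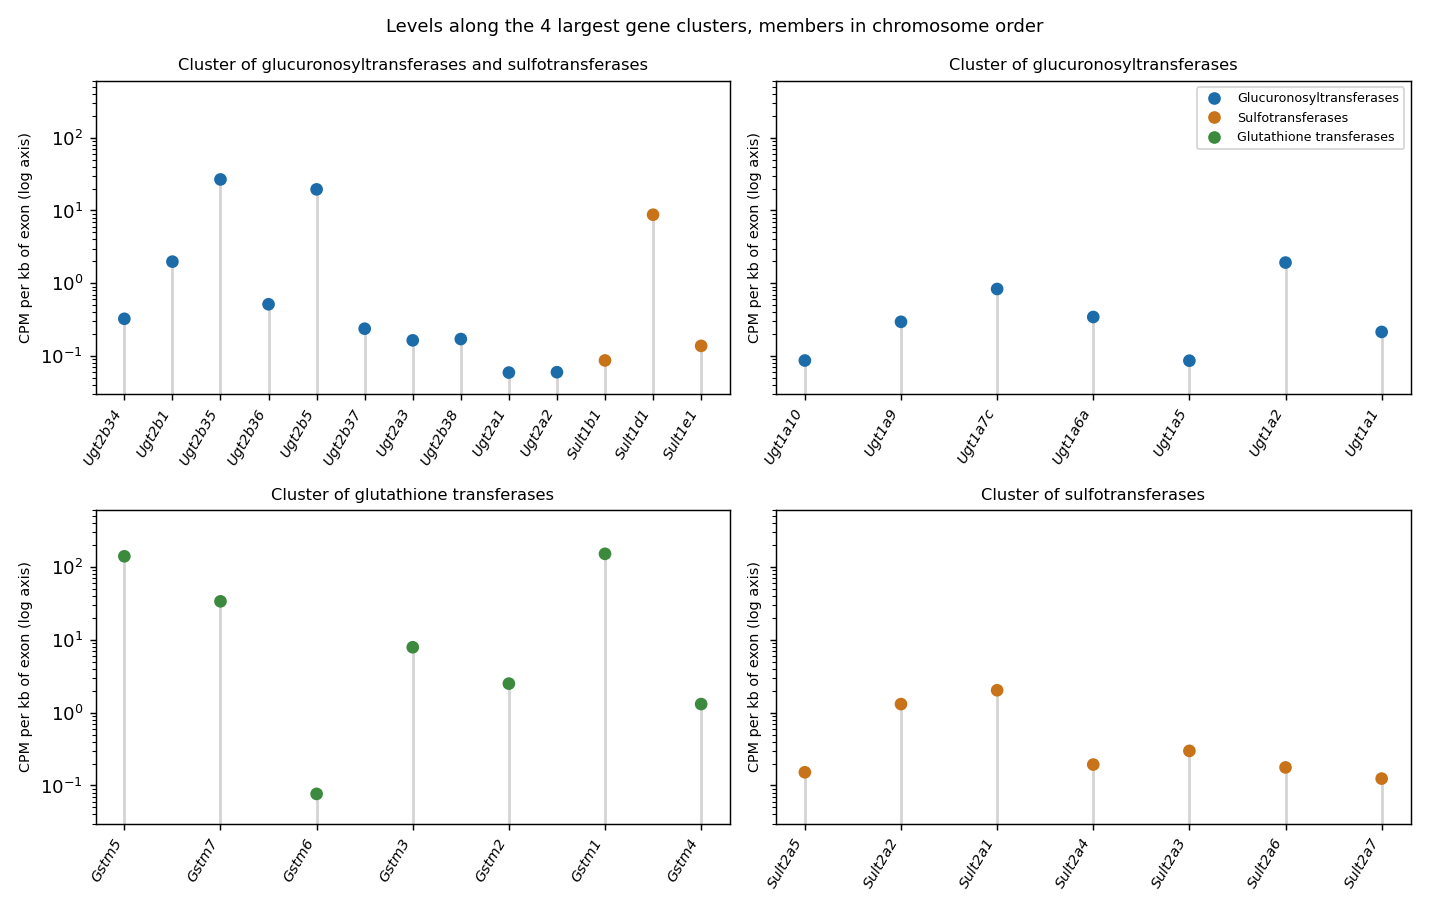
CPM per kb of exon (log axis) for the members of the 4 largest gene clusters, in chromosome order and with colours for the enzyme class. High and low members lie next to each other, as for Gstm6 (0.0766) between Gstm7 (33.8) and Gstm3 (7.92). Gstm6 has 8 curated RefSeq transcripts, and its value is not read as low expression. A gene with no read still has a value above 0 because of the lowest level.

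RefSeq promoters on GRCm38.p6, from 250 bases before to 50 after the start site, were held for 54 members, 65 promoters in all. Short motifs were counted on both strands, only with the letters given below, where N is any base. Sites that depart from these letters, or lie farther from the start site, were not counted. The core of the antioxidant response element, TGACNNNGC, to which Nfe2l2 binds with small Maf proteins, occurred in 4 of 65 promoters (6.15%) and in 12.4% of all 32851 promoters of the table. All 4 were GST genes above 1 CPM, and 3 of them, Mgst1, Gstm5 and Gstm7, were among the 8 highest GST genes by CPM. They made up 4 of 31 GST promoters and 4 of 30 promoters (13.3%) from members above 1 CPM. Both shares are near the 12.4% of all promoters. The 60 bases around each match are printed for their range of levels, from 238 CPM for Mgst1 to 2.34 CPM for Gsta3, with the match in capitals and the gene's strand read 5′ to 3′.
Mgst1 (chr6:138140444-138140503, plus strand): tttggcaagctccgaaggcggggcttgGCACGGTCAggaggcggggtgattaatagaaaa
Gstm5 (chr3:107895785-107895844, plus strand): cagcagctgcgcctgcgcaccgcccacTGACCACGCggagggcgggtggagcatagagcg
Gstm7 (chr3:107931711-107931770, minus strand): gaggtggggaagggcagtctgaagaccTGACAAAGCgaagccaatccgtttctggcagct
Gsta3 (chr1:21240437-21240496, plus strand): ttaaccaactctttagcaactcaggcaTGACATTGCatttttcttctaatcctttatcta
In Mgst1 the match lies on the opposite strand. In Gstm5 it overlaps a match to the core of the xenobiotic response element, GCGTG, on the opposite strand.

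The other motifs reported here were as follows. GCGTG, the core read by the aryl hydrocarbon receptor with Arnt, occurred in 18.5% of member promoters and in 32.4% of all, the TATA box TATAAA in 18.5% and 13.6%, and the GC box GGGCGG in 27.7% and 35.7%. GC boxes were found in 15 of 31 GST promoters, 1 of 18 UGT and 2 of 16 SULT promoters. Promoters rich in CpG, with a ratio of observed to expected CpG above 0.6, made up 4 of 30 from members above 1 CPM, 4 of 35 from the others and 35.8% of all. Mgst3, the highest member, had the highest ratio at 0.961, with Gsto2, listed at about 2 reads, next at 0.959.

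Genes that supply, regulate or follow the conjugation reactions were read from 9 lists. Of 75 listed genes found, 50 (66.7%) lay above 1 CPM, beside 33.1% of all genes and 45% of the protein-coding ones. For UGT, 3 of 4 supply genes passed: Ugdh, which makes UDP-glucuronic acid, had 8.16 CPM per kb, Ugp2, which makes its UDP-glucose precursor, 3.79 and the transporter gene Slc35d1 0.340, while Slc35d2 had no read. Of 7 genes of sulfate supply, 4 passed, led by the sulfate transporters Slc26a2 (2.17 CPM per kb) and Slc26a1 (1.64) and by Slc35b2 (1.29). Slc35b2 carries the activated sulfate out of the cytosol into the Golgi, so the list reaches beyond the supply of the cytosolic SULT enzymes. Papss1 and Papss2, which make that activated sulfate, were listed at 0.267 and 0.613 CPM and Slc35b3 at 0.406.

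Of 9 glutathione supply genes, 7 exceeded 1 CPM: Gsr, which recycles oxidized glutathione, had 78.6 CPM per kb, and Gclm and Gclc, both subunits of the rate-limiting ligase of its synthesis, had 75.8 and 75.3. Gss, the second enzyme of that synthesis, had no read and Cbs was listed at 0.599 CPM. Among genes of peroxide and aldehyde handling, 6 of 7 passed, with Gpx1 at 3102 CPM per kb, Prdx6 at 9.49 and Glrx at 9.05, and Esd at 0.669 CPM. Gpx1, a peroxidase that uses glutathione, thus exceeded every GST gene.

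Other routes were uneven. Of 12 other conjugating enzymes, 6 passed, led by the methyltransferases Gnmt (31.7 CPM per kb) and Tpmt (2.57) and by Baat (2.51), which couples bile acids to amino acids. Not above 1 CPM were Nat1, Nat2, Nnmt, As3mt, Inmt and Glyat, from no read for Glyat to 0.563 CPM for Inmt. Of 7 hydrolases and reductases, 4 passed, with Ces1d at 31.0, Nqo1 at 25.8 and Cbr1 at 16.2 CPM per kb, while Ephx1, Ephx2 and Por were listed at about 2, 1 and 0 reads. Of 7 deconjugating enzymes, 4 passed, led by Acy1 (17.8 CPM per kb), which frees acetylated amino acids, and the sulfatases Arsa (7.15) and Arsb (6.00), while Gusb, which removes glucuronic acid again, was listed at 0.312 CPM, Dpep1 at 0.203 and Ggt5 at 0.159.

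Of 9 transporters of conjugates, among them the uptake carrier Slco1b2 (3.31 CPM per kb), 7 passed. Abcg2 stood at 49.2 CPM per kb, Abcc2, the canalicular pump for glucuronides and glutathione conjugates, at 20.9 and Abcc6 at 15.9. Abcc3 had no read, and Abcc4 about 1. Of 13 regulators, 9 passed, with Nfe2l2 at 46.6, Rxra at 37.5 and the small Maf gene Mafg at 17.5 CPM per kb. Arnt, the partner of the aryl hydrocarbon receptor, was listed at 0.710 CPM, the xenobiotic receptors Nr1i2 and Nr1i3 at 0.900 and 0.266 CPM, and Hnf4a at no read. The same limit holds for these values as for the low members.

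**Figure D4:**
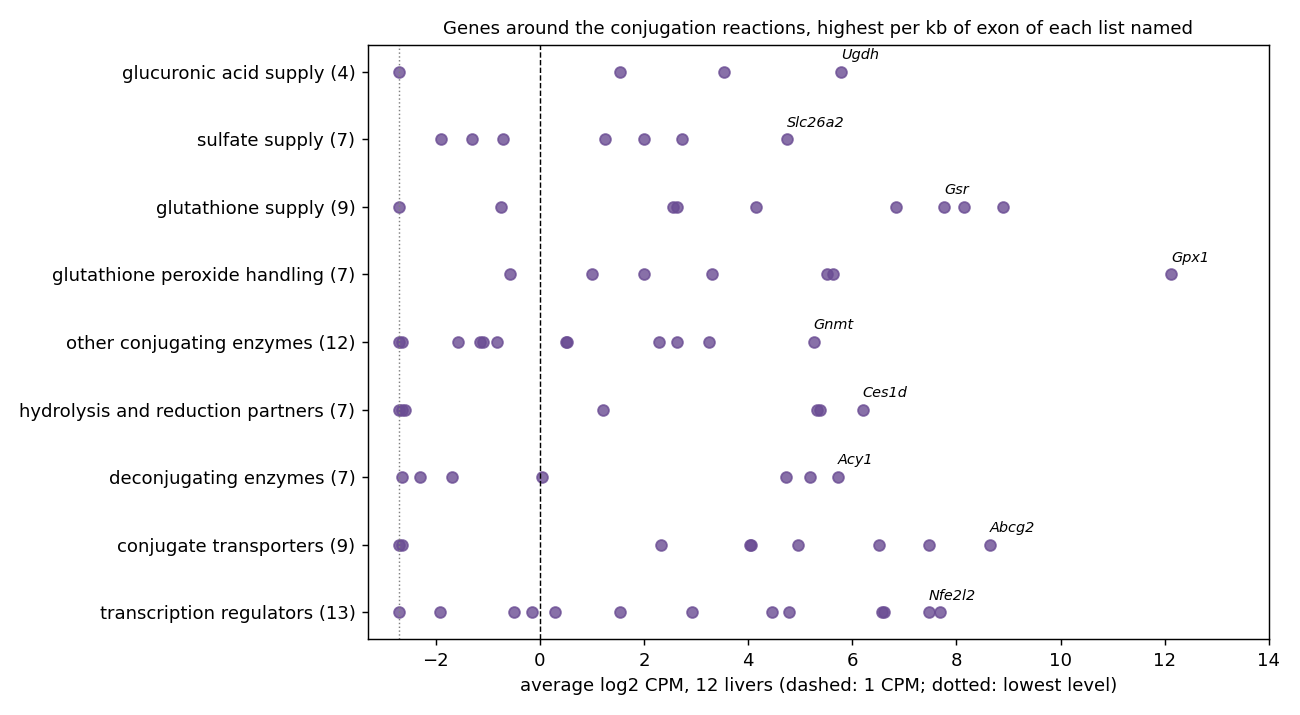
Average log2 CPM over the 12 livers for the genes of 9 lists around the conjugation reactions, with 1 point per gene and the gene highest per kb of exon named. Every list has points on both sides of 1 CPM, and Gpx1 lies farthest to the right at 12.13.

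Markers of other cell types were read at the same depth, since glutathione transferases are also made outside hepatocytes. In CPM per kb, megakaryocyte genes Ppbp and Pf4 stood at 232 and 208, granulocyte genes Mpo and Elane at 222 and 114, macrophage genes Cd5l and C1qb at 189 and 134, the mesenchymal genes Col1a1 and Dcn at 71.4 and 2.41, and endothelial Lyve1 and Kdr at 51.7 and 7.86. Bile duct genes Krt19 and Epcam had 3.28 and 2.58, the acinar genes Cela1 and Cpa1 5.94 and 4.60, and the intestinal genes Fabp2 and Vil1 16 and 1.14. Of the kidney genes Umod, Slc34a1 and Nphs1, none exceeded 1 CPM, with Nphs1 highest at 0.273 CPM. Not every marker of these lists was high: 4 of 6 macrophage, 3 of 4 endothelial, 3 of 4 mesenchymal, 3 of 4 bile duct, 3 of 4 acinar and 2 of 4 intestinal genes exceeded 1 CPM, as did all 4 granulocyte and all 4 megakaryocyte genes. Emr1, Pecam1, Pdgfrb and Sis had no read, Spp1 and Pnlip had about 2 reads, and Csf1r and Cdx2 were listed at 0.684 and 0.709 CPM. Which of these cells carried the members' transcripts was not tested, because a single average over whole livers does not separate them.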

How the data were processed

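PolyA-selected RNA of 12 whole fetal livers (6 control, 6 HFD) was prepared with a kit that does not mark strand. Alignment by the authors was to mm10, with Subread 1.3.6-p1, and the submitters' processing notes also name cutadapt 1.2.1. The tool that counted reads per gene, and its handling of reads with several sources, are not given in the sources used here. The authors deposited 1 table, made with edgeR, that gives an average log2 CPM per gene, the unit used here. Its other 8 measure columns (log2 fold change, fold change, p-value and adjusted p-value of HFD against control, each with common and with tagwise dispersion) hold the authors' own comparison and were not used. The planned test of diet needs values of single livers and was not run.

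Members and gene lists were chosen with earlier results of these data known. Every member above 1 CPM is named, with those within 2-fold of it. From each list, the 3 genes highest per kb and those not above 1 CPM are named, and from each marker list the 2 highest; some planned items are not reported here. Symbols were matched to GENCODE M21 (GRCm38), which gave exon lengths for 22881 genes and all 61 members. Approximate reads are 24 (12 libraries with a prior count of 2) times the excess of a CPM over the lowest CPM, 0.152, relative to it. The prior is assumed, and it implies a mean library of 13129752 reads. Windows of 50 bases were compared between transcripts of all genes, and longest coding sequences were aligned globally with Biopython 1.88. Promoters came from RefSeq. For 54 of the 65, the bases after the start were found in a member's transcript on the same strand. The read estimate and the motif search were tested on simulated data, and the other calculations were not. The simulated reads took the same prior count of 2, so that assumption was not tested. The planted motif was another one than those reported here.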

Additional observations from a re-analysis of the deposited data

How the results depend on the processing

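Of 52 alternative values for 14 results, 43 stayed within 1.5 times of the reported value. The threshold decided the counts. At 0.1 CPM, which lies under the lowest level, all 19 UGT, 18 SULT and 24 GST genes passed, as any gene would. At 10 CPM 2 of 19 UGT, 1 of 18 SULT and 12 of 24 GST genes passed, and 30 of 75 genes of the lists. The share of all genes above 10 CPM was not computed, so these counts have no background beside them. Among members with 1 curated transcript, chosen after seeing the data, 9 GST genes exceeded 1 CPM, out of fewer GST genes in all. Over all classes 21 of 47 such members (44.7%) lay above 1 CPM, beside 48.5% of protein-coding genes with 1 such transcript. The UGT share of the summed level was 8.24% without length correction and 2.95% without members over 90% identical in coding sequence to another, also chosen after seeing the data. Among promoters of members above 1 CPM, the share with the antioxidant element core was 13.3%, beside 12.4% of all promoters. Ugt2b35, Sult1d1 and Mgst3 led their classes under all 4 length and baseline alternatives. A planned exclusion by protein identity was not run. Leaving out single livers, DESeq2 and the filter on low counts were not run, since only the average over livers was used. No paired analysis was possible because no value of a single liver was used. Depth limits the 20 members with fewer than 10 reads in all.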
